A study of Homo sapiens with 21 samples.

Results

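The HOX and MEIS1 program of acute myeloid leukaemia was followed through 10 transcription factor genes: HOXA3, HOXA5, HOXA6, HOXA7, HOXA9, HOXA10, HOXB3, HOXB4, MEIS1 and PBX3. They were chosen by name, through the Ensembl identifiers of the expression table, and make up 10 of its 60671 genes. All 10 passed the filter on low counts. The study used RNA sequencing to follow the transcriptional response to endoplasmic reticulum (ER) stress. OCI-AML3, a human acute myeloid leukaemia line that carries NPM1 and DNMT3A mutations, was untreated at 0 h, or received DMSO (the solvent) or tunicamycin at 1 μg/mL for 4 h or for 24 h. HEK293T, a human embryonic kidney line, received DMSO or tunicamycin at 1 μg/mL for 24 h. Each of the 7 groups held 3 libraries of polyadenylated RNA, 21 in all, of which 15 are from OCI-AML3 and 6 from HEK293T. The labels do not say whether replicates were separate cultures, so the p-values measure the spread between these libraries, which may be technical. Each tissue is represented by a single established line, and the lines were grown in different media (RPMI and DMEM), so cell line and medium cannot be told apart.

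HOX genes encode homeodomain transcription factors that lie in clusters and are numbered by their order along the chromosome. In blood formation the HOXA genes and HOXB3 and HOXB4 are active in stem and progenitor cells and are switched off as cells mature. MEIS1 and PBX3 belong to the TALE homeodomain family and bind DNA together with HOX proteins, and leukaemias with mutated NPM1 typically keep this set of genes on, through menin and the MLL methyltransferase. Tunicamycin blocks N-linked glycosylation in the ER and so sets off the unfolded protein response.

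The libraries held 13838466 to 19961798 counts. Levels are given as CPM, counts scaled to a common library size. A gene without counts can still be present at 3 counts, or 0.137 to 0.231 CPM depending on the library, a limit for counting error only. Tunicamycin acted in both lines: HSPA5, the ER chaperone BiP, rose from 704 ± 26.2 to 6869 ± 164 CPM (SD, n = 3) at 4 h and from 426 ± 9.17 to 4906 ± 168 CPM at 24 h in OCI-AML3, and from 475 ± 9.19 to 3090 ± 40.4 CPM in HEK293T. Of the labelled cell types, 7 myeloid markers summed to 1432 to 1999 CPM in the OCI-AML3 libraries and to 2.98 to 7.39 CPM in HEK293T, where PTPRC, MPO and CSF3R were at 3 counts or fewer. The 5 markers of the kidney line summed to 222 to 261 CPM in HEK293T and to 3.16 to 5.27 CPM in OCI-AML3. RNA of whole cultures was measured, in which fewer cells that express a gene and less RNA per cell cannot be told apart.

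The members lie at 4 places of GRCh38. The 6 HOXA members are in the HOXA cluster on the minus strand of chromosome 7: HOXA3 (27106184 to 27152583), HOXA5 (27141052 to 27143681), HOXA6 (27145396 to 27150603), HOXA7 (27153716 to 27157936), HOXA9 (27162438 to 27175180) and HOXA10 (27170605 to 27180261). HOXB3 (48548870 to 48604912) and HOXB4 (48575507 to 48578350) lie on the minus strand of chromosome 17, MEIS1 on the plus strand of chromosome 2 (66433452 to 66573869) and PBX3 on the plus strand of chromosome 9 (125747345 to 125967377). Exons of some members overlap other genes. The antisense RNA HOXA-AS3 covers 62.5% of the exon bases of HOXA7 and 39.3% of those of HOXA6, and HOXA10-AS covers 16.4% of HOXA10 and 13.9% of HOXA9, on the opposite strand. Whether counting used the strand is not given in the sources used here, so reads of HOXA7 and HOXA6 cannot be told apart from those of HOXA-AS3 over the shared bases. The same holds for HOXA10-AS with HOXA10 and HOXA9. On the same strand, a protein-coding gene without a symbol covers 13.1% of HOXA9 and 9.9% of HOXA10, and HOXB6 covers 5.8% of HOXB3. Strand could not separate reads over those bases.

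Promoter windows, from 250 bases before to 50 bases after a transcription start, were read from RefSeq (GRCh38.p14) for 7 of the 10 members, 14 windows in all. Those of 4 members whose RNA differed after tunicamycin in OCI-AML3 are shown, since their RNA was higher there together at 24 h: HOXA9 at chr7:27165488-27165787 and HOXA10 at chr7:27179812-27180111, both on the minus strand, MEIS1 at chr2:66434875-66435174 and PBX3 at chr9:125747933-125748232, both on the plus strand. Each is written 5′ to 3′ on the strand of its gene, and capitals mark the motif matches described after them.
HOXA9: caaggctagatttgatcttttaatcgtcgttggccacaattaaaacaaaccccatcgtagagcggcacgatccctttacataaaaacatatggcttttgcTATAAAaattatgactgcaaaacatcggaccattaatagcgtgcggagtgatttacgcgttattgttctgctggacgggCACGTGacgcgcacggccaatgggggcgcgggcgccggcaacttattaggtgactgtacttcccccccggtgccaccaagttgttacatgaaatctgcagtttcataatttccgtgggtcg
HOXA10: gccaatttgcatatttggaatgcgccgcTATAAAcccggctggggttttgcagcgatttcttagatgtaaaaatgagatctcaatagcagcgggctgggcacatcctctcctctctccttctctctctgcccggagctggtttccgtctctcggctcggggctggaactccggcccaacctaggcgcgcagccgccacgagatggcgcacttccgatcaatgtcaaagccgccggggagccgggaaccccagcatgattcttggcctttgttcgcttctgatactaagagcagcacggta
MEIS1: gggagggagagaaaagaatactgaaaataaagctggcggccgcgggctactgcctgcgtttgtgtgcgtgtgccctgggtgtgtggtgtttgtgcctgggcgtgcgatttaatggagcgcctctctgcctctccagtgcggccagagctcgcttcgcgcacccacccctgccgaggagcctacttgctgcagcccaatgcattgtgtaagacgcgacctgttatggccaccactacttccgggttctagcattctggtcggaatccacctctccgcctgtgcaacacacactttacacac
PBX3: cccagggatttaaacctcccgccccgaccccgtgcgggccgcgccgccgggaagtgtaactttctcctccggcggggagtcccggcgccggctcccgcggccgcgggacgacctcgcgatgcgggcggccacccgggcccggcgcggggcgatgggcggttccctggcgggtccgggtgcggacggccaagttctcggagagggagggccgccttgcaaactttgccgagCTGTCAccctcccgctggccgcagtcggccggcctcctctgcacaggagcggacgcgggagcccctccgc
The motifs were searched on both strands. The ER stress element (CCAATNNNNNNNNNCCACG) was in 0 of the 14 member windows and in 0.0769% of all 35116 windows, and the XBP1-type element TGACGTGG in 0 of 14 and 0.729%. The core ACGTG, which the XBP1-type element contains, was in 4 of 14 windows, against 21.4% of all windows. In the HOXA9 window it is part of the marked CACGTG, which holds ACGTG on both strands. The ATF4-type element TGATGNAA was in 1 window, of HOXA3, against 3.62% of all windows, the PBX-HOX motif TGATTNAT in 0 windows, against 2.82%, and the MEIS motif TGACAG in 1, against 15.8%. That match is the CTGTCA marked in PBX3. TATAAA was in 4 of 14 windows, against 11.5%, and is marked in HOXA9 and HOXA10. A further HOXA10 window, at chr7:27174271-27174570, is not shown and holds both TATAAA and ACGTG. The MEIS1 window shown held none of these motifs. The windows of members had a median GC content of 57.5%, against 58.7% for all promoters, and a median of 21.5 CpG sites, against 14. HOXA3 gave more of the 14 windows than any other member, so these shares and medians lean on that gene.

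In OCI-AML3 cells, transcripts of the program were unequal in level and came mostly from the posterior end of the HOXA cluster. Per kilobase of exon, HOXA10 led in all 5 groups of OCI-AML3 and HOXA9 came next, and after DMSO for 24 h they stood at 45.7 ± 2.55 and 19.5 ± 2.59 CPM per kilobase (SD, n = 3). HOXB4 (4.58 ± 0.19), HOXB3 (4.39 ± 0.28), PBX3 (3.11 ± 0.48) and MEIS1 (2.83 ± 0.17) formed a middle group, in which the libraries of HOXB4 and HOXB3, of PBX3 and MEIS1, and of MEIS1 and HOXA5 (2.18 ± 0.64) overlapped. HOXA6 (1.26 ± 0.37), HOXA7 (0.79 ± 0.10) and HOXA3 (0.52 ± 0.07) were lowest, and the libraries of HOXA6 and HOXA7 overlapped. With coding length in place of exon length HOXA10 and HOXA9 kept the first places and HOXA3 the last, and HOXB3 and MEIS1 moved to ranks 3 and 4.

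The 11 HOXA genes summed to 435 ± 32.6 CPM in OCI-AML3 after DMSO for 24 h, and 97.4 ± 0.07% of this came from HOXA9, HOXA10, HOXA11 and HOXA13. In HEK293T the sum was 528 ± 4.71 CPM, and these 4 genes made up 68.4 ± 0.62% of it. Per kilobase, HOXA5 was the highest member in HEK293T (48.1 ± 0.46 CPM per kilobase), followed by HOXA9 (41.8 ± 0.69) and HOXA10 (37.6 ± 1.14), with no overlap of the libraries of these neighbours. By coding length the order of the 3 became HOXA9, HOXA10, HOXA5. The plot of the clusters shows the anterior HOXA genes up to HOXA7 near the axis in OCI-AML3 alone. HOXC and HOXD genes were near 0 in OCI-AML3 (at most 0.73 CPM over 9 HOXC genes and at most 0.05 CPM over 9 HOXD genes in any library), and summed to 114 ± 4.35 and 268 ± 3.40 CPM in HEK293T after DMSO.

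**Figure D1:**
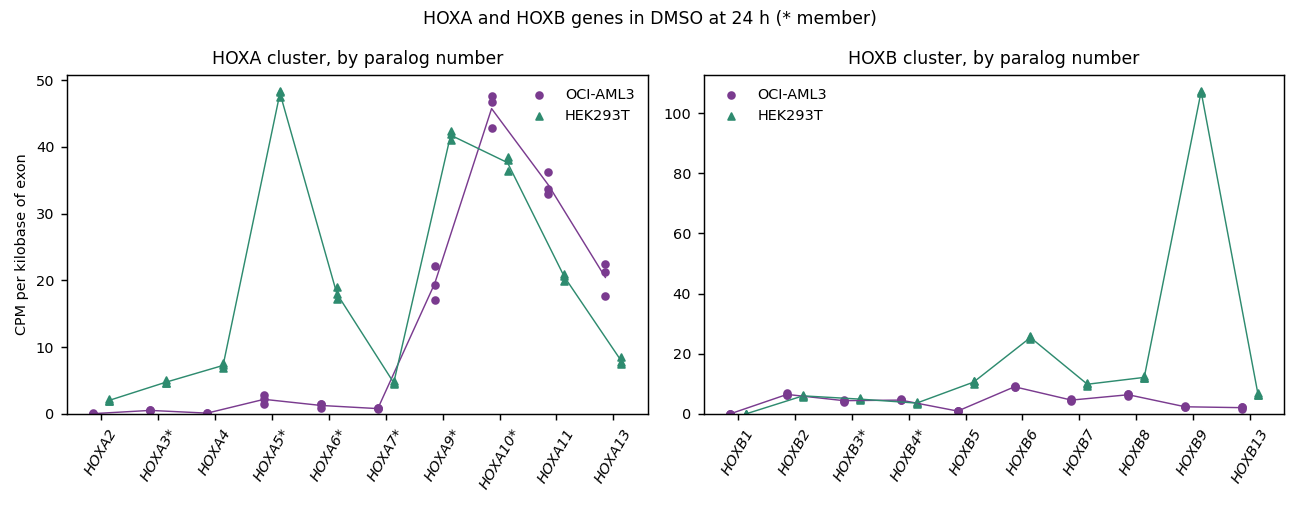
Level of HOXA genes (left) and HOXB genes (right) after DMSO for 24 h, in CPM per kilobase of exon, ordered by paralog number; points are libraries (3 per line), lines join the means, and * marks members. HOXA5 stands at 48.1 CPM per kilobase in HEK293T and at 2.18 in OCI-AML3, while HOXA10 stands at 37.6 and 45.7.

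HOXA5, a gene silenced in many leukaemias, showed the largest gap between the lines among the members. It was at 2.65, 3.73 and 4.85 CPM in the OCI-AML3 libraries after DMSO for 24 h and at 81.8, 82.9 and 83.3 CPM in HEK293T, a log2 difference of 4.47 (standard error, SE, 0.13; adjusted p = 5.7e-19, from the quasi-likelihood test of edgeR with Benjamini-Hochberg adjustment over 14012 genes). Differences were 3.85 for HOXA6, 3.20 for HOXA3, 2.56 for HOXA7, 1.10 for HOXA9 and 0.82 for PBX3. Thus 6 members were higher in HEK293T, where 40.5% of all genes tested were. MEIS1 was lower (log2 difference -0.95, adjusted p = 7.9e-11), with 32.6, 28.9 and 31.4 CPM in OCI-AML3 against 16.4, 15.8 and 15.7 CPM in HEK293T. HOXA10 was lower as well (-0.28, adjusted p = 8.6e-05), a direction that turned to 0.06 when library sizes were used without TMM, which moved the median of all genes by 0.34. HOXB4 had a log2 difference of -0.36 (adjusted p = 0.023), a call that was lost when any 1 of 7 libraries was left out (adjusted p up to 0.16) and without TMM (-0.01, adjusted p = 0.92). These 3 members compare with 42.2% of all genes called lower. Of the members, 5 passed a log2 difference of 1 as well, against 45.2% of all genes. HOXB3, at 0.16 (95% interval -0.03 to 0.35, adjusted p = 0.10), did not pass the test, and passed it in 8 of 30 alternative fits, among them the one with library sizes over all genes (0.20, adjusted p = 0.048).

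**Figure D2:**
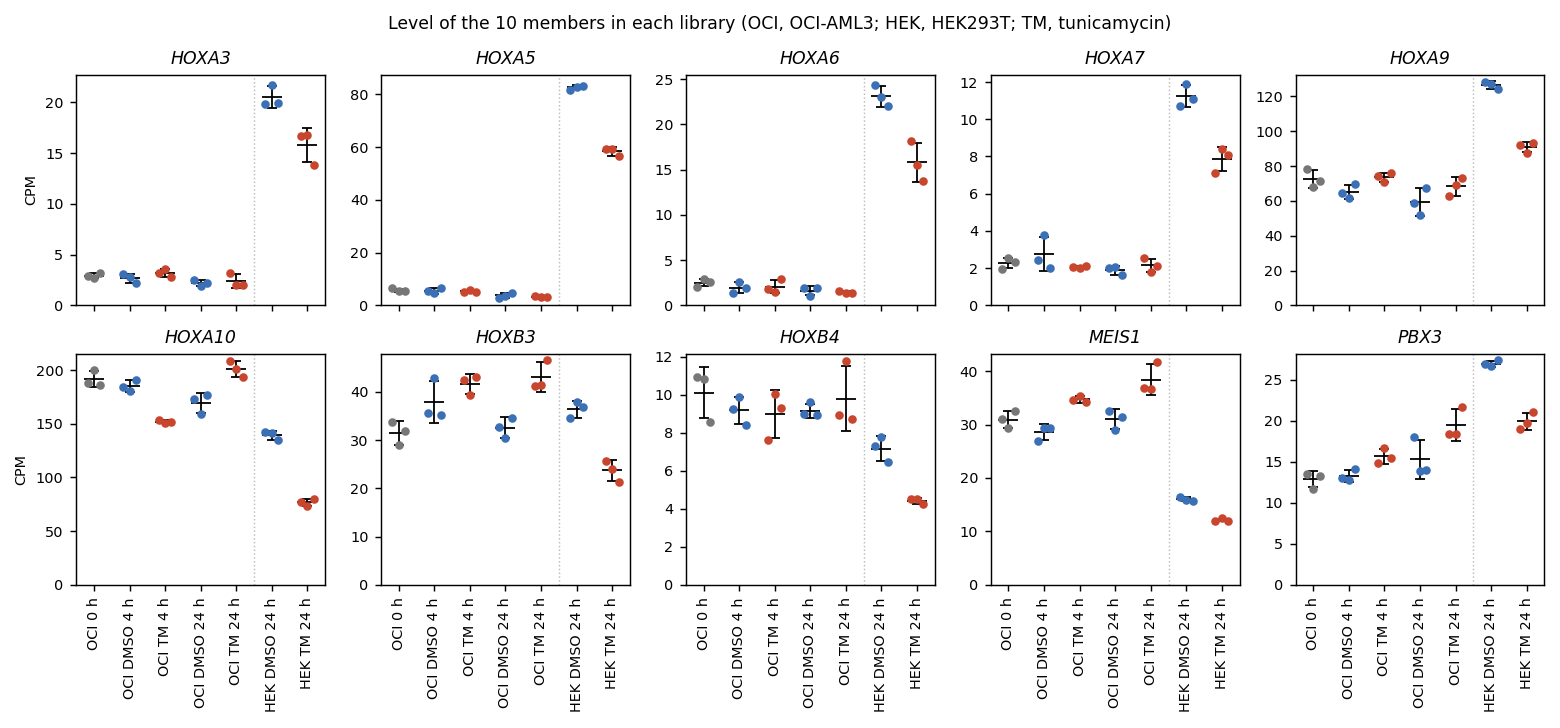
Level of each member in every library, in CPM (y axes start at 0 and differ between panels); points are the 3 replicates of a group, the long dash is their mean and the bars are 1 SD. In HEK293T (right of the dotted line) the tunicamycin libraries of all 10 members lie below the DMSO libraries, and in OCI-AML3 HOXA10 lies at 151 to 153 CPM after tunicamycin for 4 h and at 194 to 208 CPM after 24 h.

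After tunicamycin for 4 h in OCI-AML3, MEIS1 was higher and HOXA10 lower than in DMSO, and the other 8 members did not pass the test. This is 1 member called higher, where 18.5% of all 14012 genes were, and 1 called lower, where 18.9% were. No member passed the test together with a log2 fold change beyond 1 or -1, which 4.92% of all genes did. That count of 0 was the same with edgeR at an unadjusted p under 0.05, with limma voom and with the DESeq2 Wald test. The question this comparison addresses is whether the program responds during the first hours of ER stress.

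MEIS1, the HOX cofactor that shortens the latency of HOXA9 leukaemia in models, was at 26.8, 29.4 and 29.4 CPM after DMSO for 4 h and at 34.5, 35.4 and 34.2 CPM after tunicamycin. The groups did not overlap. The log2 fold change was 0.28 (SE 0.07; adjusted p = 0.0044, edgeR), and 0.25 with an adjusted p of 0.10 when every gene with a count was kept in the test. HOXA10, a posterior HOX gene that restrains differentiation of progenitors, was at 185, 180 and 191 CPM after DMSO and at 153, 151 and 152 CPM after tunicamycin. All 3 treated libraries lay below the controls, with a log2 fold change of -0.29 (SE 0.06; adjusted p = 0.00031).

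HOXA9, the posterior HOX gene most closely tied to leukaemic self-renewal, was at 64.5, 61.6 and 69.7 CPM after DMSO for 4 h and at 74.0, 70.9 and 76.0 CPM after tunicamycin. PBX3, the PBX family partner of HOXA9, was at 12.96, 12.74 and 14.14 CPM against 14.8, 16.7 and 15.5 CPM. In both, the treated libraries lay above the controls without overlap, yet neither passed the test (log2 fold changes of 0.17 and 0.24, adjusted p = 0.10 and 0.082 from edgeR), and leaving out 1 library of another time point brought each of them past it in 2 of 21 fits. Together with MEIS1, 3 members were higher in every library, where 22.9% of all genes were. HOXB3 had a log2 fold change of 0.14, HOXB4 of -0.03 and HOXA5 of -0.08, with overlapping libraries. HOXA3, HOXA6 and HOXA7, the weakest members, were at 27 to 61, 16 to 46 and 21 to 59 counts over the 15 OCI-AML3 libraries, and their 95% intervals at 4 h ran from -0.11 to 0.68, from -0.48 to 0.61 and from -0.86 to 0.03, each of which holds 0. Without replicate 3 of the DMSO group HOXA7 passed the test (-0.61, adjusted p = 0.034).

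**Figure D3:**
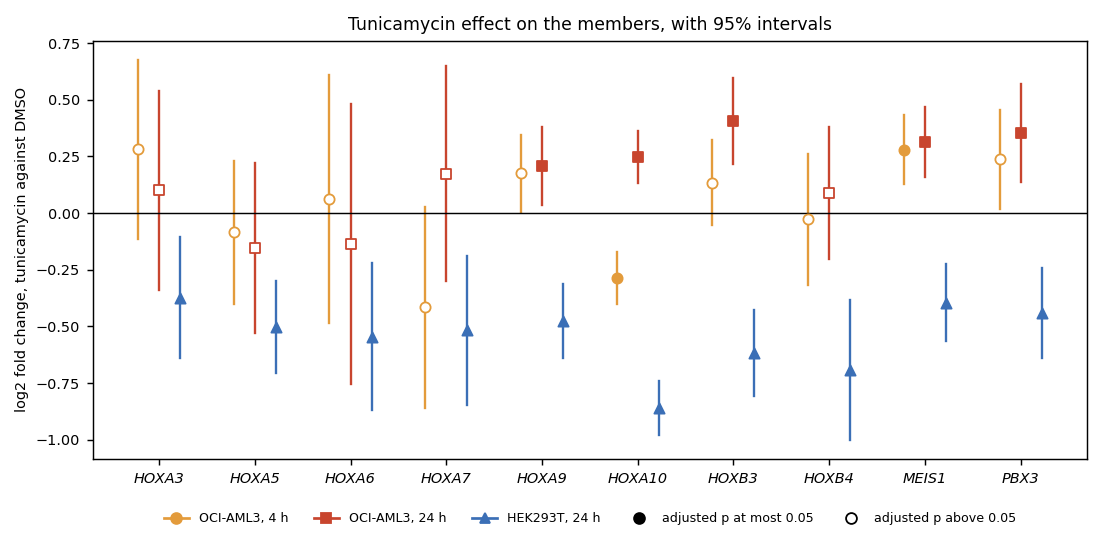
Log2 fold change of tunicamycin against DMSO for each member, with its 95% interval, in OCI-AML3 at 4 h (circles) and 24 h (squares) and in HEK293T at 24 h (triangles); filled symbols passed the test at an adjusted p of at most 0.05. The HEK293T values lie between -0.86 and -0.37, and HOXA10 in OCI-AML3 lies at -0.29 at 4 h and at 0.25 at 24 h.

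After tunicamycin for 24 h in OCI-AML3, HOXA9, HOXA10, HOXB3, MEIS1 and PBX3 were higher than in DMSO, by log2 fold changes of 0.21 to 0.41. These 5 of 10 members compare with 23.5% of all genes called higher. With edgeR 0 members were called lower, where 27.7% of all genes were, as with limma voom and DESeq2 and at an unadjusted p under 0.05. No member passed a log2 fold change beyond 1 or -1 together with the test, which 6.32% of all genes did, and that 0 was the same at an unadjusted p under 0.05 with edgeR, with limma voom and with DESeq2. The median log2 fold change was 0.19 over the members and -0.01 over all genes.

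HOXB3, a gene of the HOXB cluster expressed in blood progenitors, moved farthest among the members. It was at 32.7, 30.4 and 34.6 CPM after DMSO for 24 h and at 41.3, 41.4 and 46.6 CPM after tunicamycin, with no overlap and a log2 fold change of 0.41 (SE 0.09; adjusted p = 0.00081, edgeR). PBX3 was at 18, 13.9 and 13.9 CPM after DMSO and at 18.3, 18.3 and 21.7 CPM after tunicamycin. One control library of PBX3 stood close to the treated ones, and the log2 fold change was 0.35 (SE 0.10; adjusted p = 0.0069). It ran from 0.31 to 0.54 over the alternative fits, all of which kept the call. MEIS1 was at 32.6, 28.9 and 31.4 against 36.9, 36.6 and 41.7 CPM, without overlap, a log2 fold change of 0.31 (SE 0.07; adjusted p = 0.0012).

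HOXA10 was at 173, 159 and 177 CPM after DMSO for 24 h and at 208, 201 and 194 CPM after tunicamycin, without overlap. Its log2 fold change was 0.25 (SE 0.06; adjusted p = 0.0009, edgeR). HOXA9 was at 58.7, 51.7 and 67.4 CPM after DMSO and at 62.8, 69.0 and 73.1 CPM after tunicamycin. The highest control library of HOXA9 lay above the lowest treated one, and its log2 fold change of 0.21 (standard error 0.08) just passed the test (adjusted p = 0.041). The call on HOXA9 turned on the processing. With library sizes over all genes, the first version fitted, it was 0.26 (adjusted p = 0.011). In the fit of the 24 h groups alone it was 0.23 (adjusted p = 0.11), with every gene with a count kept 0.19 (0.14), without replicate 2 of the DMSO group 0.16 (0.12) and without replicate 3 of the tunicamycin group 0.20 (0.083). Over all alternative fits the value of HOXA9 ran from 0.16 to 0.36, and the call was lost in 4 of them. HOXA10, HOXB3, MEIS1 and PBX3 were higher in every library, 4 members where 25.0% of all genes were.

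The other 5 members at 24 h did not pass the test in OCI-AML3, and their libraries overlapped. HOXB4, which promotes the self-renewal of blood stem cells, was at 8.97, 9.59 and 8.93 CPM after DMSO and at 8.92, 11.8 and 8.71 CPM after tunicamycin (95% interval of the log2 fold change -0.20 to 0.38). HOXA5 was at 2.65, 3.73 and 4.85 against 3.37, 3.35 and 3.32 CPM (interval -0.53 to 0.22). HOXA3 (interval -0.34 to 0.54), HOXA6 (-0.76 to 0.48) and HOXA7 (-0.30 to 0.65), neighbours of HOXA5 in the anterior part of the cluster, had the widest intervals.

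HOXA10 was the member whose response differed between the times. The effect of tunicamycin at 24 h exceeded that at 4 h by 0.53 on the log2 scale (SE 0.08; adjusted p = 2.6e-05, interaction term of edgeR), 1 member where 15.1% of all genes were called in that direction. The treated libraries thus lay below the controls at 4 h and above them at 24 h. The differences of the other 9 members did not pass the test. They included 0.59 for HOXA7 (95% interval -0.06 to 1.24, adjusted p = 0.15) and 0.27 for HOXB3 (adjusted p = 0.11; 0.050 without replicate 3 of the tunicamycin group of HEK293T, and 0.045 without TMM), and 0.03 for both MEIS1 (interval -0.18 to 0.25) and HOXA9 (interval -0.21 to 0.27).

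The members' background was measured in the controls of the same line. Between untreated cells at 0 h and DMSO at 4 h, 0 members were called with edgeR, where 0.0% of all genes were called higher and 0.0% lower. One member, HOXB3, had an unadjusted p under 0.05 there, as had 1160 of all genes, limma voom also called 0 genes, and DESeq2 called 0 members among 16 genes. HOXB3 was at 33.7, 28.9 and 31.98 CPM in untreated cells and at 35.6, 42.9 and 35.3 CPM after DMSO for 4 h, a log2 difference of 0.27 that is as large as some of the effects described for tunicamycin. Between DMSO at 4 h and at 24 h, HOXA5 was called lower, where 21.6% of all genes were. It was at 5.45, 4.54 and 6.75 CPM at 4 h and at 2.65, 3.73 and 4.85 CPM at 24 h, groups that overlap, with a log2 difference of -0.59 (SE 0.16; adjusted p = 0.0061, edgeR). That call was lost when only these groups were fitted (adjusted p = 0.087), without replicate 3 at 4 h (-0.42, adjusted p = 0.064) and without replicate 1 at 24 h (-0.40, adjusted p = 0.057). With edgeR 4 members had an unadjusted p under 0.05 here, as had 7026 of all genes. Besides HOXA5 they were HOXA7 (-0.52), HOXA10 (-0.13) and HOXB3 (-0.22), with adjusted p of 0.061, 0.071 and 0.059. HOXA10 was at 185 ± 5.22 CPM at 4 h and 170 ± 9.46 CPM at 24 h, and HOXB3 at 37.9 ± 4.29 and 32.6 ± 2.11 CPM.

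In HEK293T cells all 10 members were lower after tunicamycin for 24 h, by log2 fold changes of -0.37 to -0.86. Of all genes tested 13.1% were called lower in this comparison. In all 10 members every treated library lay below every control library, which was so for 25.7% of all genes. No member passed a log2 fold change of -1, which 2.13% of all genes passed in either direction together with the test, and the count of 0 was the same at an unadjusted p under 0.05, with limma voom and with DESeq2. The median log2 fold change was -0.51 over the members and -0.01 over all genes.

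HOXA10 fell most among the members in HEK293T. It was at 143, 141 and 135 CPM after DMSO and at 76.9, 73.7 and 79.6 CPM after tunicamycin, a log2 fold change of -0.86 (SE 0.06; adjusted p = 7.5e-11, edgeR). HOXB4 was at 7.28, 7.76 and 6.45 against 4.49, 4.52 and 4.23 CPM (log2 fold change -0.69, adjusted p = 0.0013), and HOXB3 at 34.5, 38.0 and 36.8 against 25.7, 24.1 and 21.3 CPM (-0.62, adjusted p = 2.4e-05). The HOXB members thus fell together with the HOXA members. HOXA9 was at 128, 127 and 124 CPM after DMSO and at 92.1, 87.7 and 93.2 CPM after tunicamycin (-0.48, adjusted p = 9.3e-05). HOXA5 was at 81.8, 82.9 and 83.3 against 59.1, 59.4 and 56.5 CPM (-0.50, adjusted p = 0.00054).

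The 2 TALE genes among the members fell as well. MEIS1 was at 16.4, 15.8 and 15.7 CPM after DMSO and at 12.02, 12.42 and 12.02 CPM after tunicamycin in HEK293T (log2 fold change -0.40, adjusted p = 0.00091 from edgeR), and PBX3 at 26.9, 26.6 and 27.3 against 19.03, 19.66 and 21.01 CPM (-0.44, adjusted p = 0.0016). HOXA6 (-0.55, adjusted p = 0.013), HOXA7 (-0.52, adjusted p = 0.019) and HOXA3 (-0.37, adjusted p = 0.036) completed the set. For HOXA3, at 19.8, 21.7 and 19.9 against 16.66, 16.83 and 13.83 CPM, leaving out any 1 of the 6 HEK293T libraries raised the adjusted p to between 0.055 and 0.17. The call on HOXA6 was lost without replicate 1 of the DMSO group or replicate 2 or 3 of the tunicamycin group, that on HOXA7 without replicate 2 of the DMSO group or replicate 1 of the tunicamycin group, and the number of members called in these fits was 8 to 10.

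The effect of tunicamycin at 24 h differed between the lines for 6 members, all lower in HEK293T, where 10.9% of all genes were called in that direction. The difference on the log2 scale was -1.11 for HOXA10 (adjusted p = 1.7e-09 from edgeR's interaction term) and -1.02 for HOXB3 (4.9e-06). These 2 members also passed a log2 difference of -1, against 4.89% of all genes in either direction. It was -0.79 for PBX3, -0.78 for HOXB4, -0.71 for MEIS1 and -0.68 for HOXA9. For HOXA7 (-0.69, adjusted p = 0.069), HOXA3 (-0.47), HOXA6 (-0.41) and HOXA5 (-0.35) the difference did not pass the test, except that HOXA7 passed it in 4 of 30 alternative fits and HOXA5 without replicate 3 of the OCI-AML3 DMSO group at 24 h (-0.61, adjusted p = 0.034). The comparisons in the 2 lines share no libraries, but cell line and medium cannot be told apart.

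Other HOX genes, named here from a list of all 31 that are no members, were called in OCI-AML3 at about the rate of all genes. Of the 31, 10 passed the filter. At 4 h 2 of them were higher and 2 lower, where 18.5% and 18.9% of all genes were, and at 24 h 3 were higher and 2 lower, where 23.5% and 27.7% were. HOXB9, a posterior gene of the HOXB cluster, was at 4.58, 4.99 and 4.18 CPM after DMSO and at 21.7, 16.7 and 17.9 CPM after tunicamycin (log2 fold change 2.04, adjusted p = 1.7e-12), the largest change of a tested HOX gene in that comparison. HOXA11 rose from 75.5 ± 1.66 to 106 ± 5.06 CPM (0.49), while HOXA13 (-0.38) and HOXB5 (-0.55, adjusted p = 0.044) were lower. Adjacent genes of the posterior HOXA cluster thus differed in direction at 4 h, with HOXA10 and HOXA13 lower and HOXA11 higher. At 24 h HOXB9 (0.69) and HOXA13 (0.25) were among those higher, and HOXB6 (-0.65) and HOXB13 (-0.63) were lower. The median of the 10 was 0.01 at both times. The call on HOXB5 was lost in 19 of 30 alternative fits, that on HOXA13 at 24 h without replicate 2 of the DMSO group, and that on HOXB13 in 4 of 30. Over these fits the log2 fold change of HOXB5 at 4 h ran from -0.68 to -0.34 and that of HOXB13 at 24 h from -0.78 to -0.30.

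In HEK293T 9 of the same 10 were lower, where 13.1% of all genes were, HOXB9 being the exception (277 ± 1.15 CPM after DMSO and 267 ± 6.36 CPM after tunicamycin). The HOXC and HOXD genes, most of which are expressed in HEK293T alone, all failed a filter that asks for 8 libraries. With 1 CPM in 3 libraries, 27 of the 31 were tested, of which 20 were lower (11.8% of all genes were lower in that fit), with a median log2 fold change of -0.63. Since the 3 DMSO libraries can pass this filter on their own, it favours genes that fell, but all 20 called genes had at least 1 CPM in all 6 HEK293T libraries. The 7 not called were HOXA2, HOXB9, HOXC4, HOXC5, HOXD3, HOXD4 and HOXD8, of which HOXD3 (0.16) lay above 0. Of 9 noncoding RNAs of the HOX clusters tested in this fit, 7 were lower, with a median of -0.98.

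**Figure D4:**
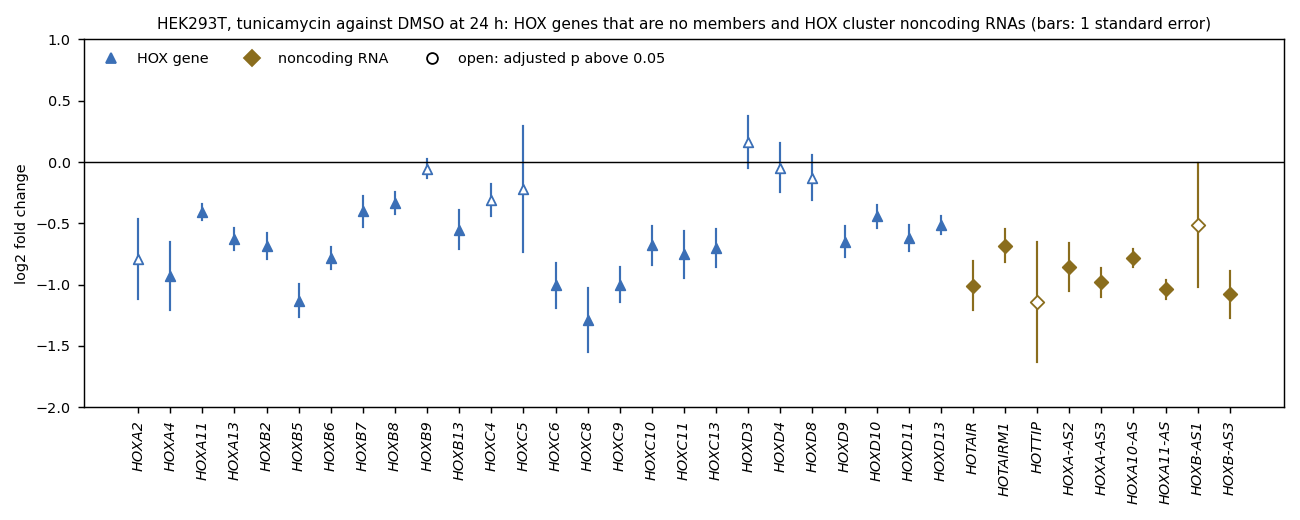
Log2 fold change in HEK293T, tunicamycin against DMSO at 24 h, of HOX genes that are no members (triangles) and of noncoding RNAs of the HOX clusters (diamonds), in the fit with genes of at least 1 CPM in 3 libraries; bars are 1 standard error and open symbols have an adjusted p above 0.05. The HOX genes drawn lie below 0 except HOXD3, and all 9 noncoding RNAs do.

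Noncoding RNAs that run antisense to members were read beside them. HOXA-AS3, which overlaps HOXA7 and HOXA6, was at 3.99, 4.29 and 4.58 CPM after DMSO for 4 h and at 2.56, 1.70 and 3.12 CPM after tunicamycin in OCI-AML3 (log2 fold change -0.82, adjusted p = 0.0016 from edgeR), and in HEK293T it fell from 36.9 ± 3.38 to 18.7 ± 2.05 CPM (-0.98). HOXA10-AS, which overlaps HOXA10 and HOXA9, rose at 24 h in OCI-AML3 (0.33, adjusted p = 0.00047) and fell in HEK293T (-0.78), the directions of HOXA10. The part of shared reads in these values was not tested. HOXA11-AS was higher at 4 h in OCI-AML3 (0.27), HOTTIP, a noncoding RNA at the 5′ end of the HOXA cluster, was higher at 24 h (0.36) and HOXB-AS3 lower at 24 h (-0.52). The call on HOTTIP was lost without replicate 2 of the DMSO group (0.30), that on HOXB-AS3 without replicate 3 of the tunicamycin group (-0.30) and that on HOXA11-AS with every gene with a count kept (0.24). In all, 1 of 7 tested noncoding RNAs was higher and 1 lower at 4 h, and 2 were higher and 1 lower at 24 h, numbers close to the shares of all genes (18.5% and 18.9% at 4 h, 23.5% and 27.7% at 24 h).

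Among the other TALE genes, 6 of 7 were tested. At 4 h MEIS2 (log2 fold change 1.01, from 1.55 ± 0.31 to 3.10 ± 0.55 CPM) and PBX4 (0.88) were higher and PKNOX1 (-0.31) lower in OCI-AML3, and at 24 h MEIS3 (0.58, adjusted p = 0.048) was higher and PBX2 (-0.22, adjusted p = 0.013) lower. The calls on MEIS3 and PBX2 were lost in 10 and 14 of 30 alternative fits, over which their values ran from 0.455 to 0.786 and from -0.24 to -0.129. In HEK293T 1 of the 6 was lower, where 13.1% of all genes were, and 0 were higher, with a median log2 fold change of -0.15.

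The list of menin, MLL and NPM1 regulators includes genes whose products place or read the chromatin marks that keep HOX genes on. It held genes that moved in either direction in OCI-AML3. Of 21 genes, 4 were higher and 6 lower at 4 h, where 18.5% and 18.9% of all genes were, and 2 were higher and 9 lower at 24 h, where 23.5% and 27.7% were. The median log2 fold change was -0.07 at 4 h and -0.18 at 24 h, against -0.02 and -0.01 over all genes. Whether the list differs from other genes was not tested. MEN1, which encodes menin, was at 86.6, 95.04 and 86.2 CPM after DMSO for 4 h and at 68.5, 68.1 and 63.1 CPM after tunicamycin (-0.42, adjusted p = 4.8e-05 from edgeR), and at 81.2, 74.5 and 80.7 against 62.8, 60.4 and 55.3 CPM at 24 h (-0.41, adjusted p = 6.3e-05). Its treated libraries lay below the controls at both times, while MEIS1 and, at 24 h, HOXA10 lay above. DOT1L, the H3K79 methyltransferase, was lower at 24 h (-0.46), and MLLT1 (-0.41) and KMT2B (-0.42) at 4 h. PSIP1, which tethers menin and MLL to chromatin, was higher at 24 h (0.43), as was AFF4 (0.31). KAT7 (0.41) and MLLT3 (0.44) were among those higher at 4 h, and MLLT3 was lower at 24 h (-0.52). Leaving out 1 library ended the calls on KMT2B (-0.28 without replicate 2 of the DMSO group), AFF4 (0.24 without replicate 3 of the tunicamycin group) and MLLT3 at 24 h (-0.39 without replicate 1 of the DMSO group, -0.34 without replicate 2 of the tunicamycin group), and the call on MLLT3 at 4 h was lost in 8 of 30 alternative fits. NPM1 itself did not pass the test in OCI-AML3 and was at 1139 ± 100 CPM after DMSO and 1133 ± 30.4 CPM after tunicamycin at 4 h. In HEK293T 4 of the 21 were lower, where 13.1% of all genes were, among them NPM1 (-0.28), and MEN1 was at 107 ± 3.61 and 102 ± 4.88 CPM.

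Polycomb genes, whose products keep HOX genes silent, also moved in either direction in OCI-AML3. At 4 h 6 of 11 were higher and 1 lower, where 18.5% and 18.9% of all genes were, with a median log2 fold change of 0.37 against -0.02 over all genes. PCGF1 (log2 fold change 0.65) and CBX8 (0.46) were higher. CBX2, which encodes a chromodomain subunit, went the other way, with 35.1, 34.9 and 32.5 CPM after DMSO for 4 h and 13.4, 12.03 and 12.4 CPM after tunicamycin (-1.44, adjusted p = 2.2e-11 from edgeR), without overlap. At 24 h 4 were higher and 3 lower, where 23.5% and 27.7% of all genes were. BMI1 (0.36) and RNF2 (0.33) were among those higher, and those lower were PCGF1 (-0.43), CBX2 (-0.34) and EZH2 (-0.15, adjusted p = 0.050, lost in 28 of 30 alternative fits). Without replicate 3 of the tunicamycin group at 24 h BMI1 (0.29), PCGF1 (-0.27) and CBX2 (-0.24) were no longer called, nor was CBX2 without replicate 2 of the DMSO group (-0.23). In HEK293T CBX2 was lower (-0.36).

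Genes that HOXA9 and MEIS1 are known to control in leukaemia were read in the same way. Of 14 such genes 13 were tested, of which 6 were higher and 2 lower at 4 h, where 18.5% and 18.9% of all genes were, and 6 were higher at 24 h, where 23.5% were. Both counts of 6 include SYTL1. It passed the filter on low counts through HEK293T libraries together with treated OCI-AML3 libraries, in which it is high. The median log2 fold changes, with SYTL1 included, were 0.15 and 0.26. FLT3, the receptor tyrosine kinase often mutated in this leukaemia, was at 100.9, 85.1 and 101.5 CPM after DMSO for 24 h and at 202, 203 and 225 CPM after tunicamycin (log2 fold change 1.13, adjusted p = 4.1e-11 from edgeR), without overlap. TRIB2, a pseudokinase gene that MEIS1 activates, was at 65.3, 51.6 and 61.6 against 88.8, 83.7 and 101.8 CPM at 24 h (0.62). SYTL1 was nearly silent in the OCI-AML3 controls, and at 1.56 ± 0.21 CPM in HEK293T after DMSO. In OCI-AML3 it had 3 counts over the 3 DMSO libraries and 42 over the tunicamycin libraries at 4 h, a ratio of 14.5 with an exact 95% counting interval of 4.64 to 73.2, and 1 count against 126 at 24 h, a ratio of 115 with an interval of 20.2 to 4570.0. Each ratio rests on a single control library, since the 3 counts at 4 h were all in replicate 1 and the 1 count at 24 h was in replicate 2 of the DMSO groups, and without that library the controls of SYTL1 hold no count to set a ratio against. The fitted log2 fold change of SYTL1, which is no bound, was 3.69 at 4 h and 6.43 at 24 h. It was 6.90 at 4 h without replicate 1 and 3.10 without replicate 3 of the DMSO group, 2.98 without replicate 2 of the tunicamycin group, which held 26 of the 42 counts, and 8.52 at 24 h without replicate 2 of the DMSO group. SYTL1 was above 1 CPM in every HEK293T library. It reached the filter of 1 CPM in 8 libraries only with treated OCI-AML3 libraries counted as well, since no untreated or DMSO library of OCI-AML3 was at 1 CPM. It was thus tested because it is high after tunicamycin, and no conclusion on the list is drawn from its calls. SYTL1 kept its call in all 30 alternative fits at each time, but these reuse the same libraries and add no support. At 4 h CDK6 (0.38) and LMO2 (0.31) were also higher, and PIM1 (-0.57) and ERG (-0.54) lower. The call on CDK6 was lost without replicate 1 of the DMSO group (0.23), without replicate 1 (0.39) or 3 (0.33) of the tunicamycin group, and without TMM (0.36). In HEK293T HIF1A was lower (-0.28), 1 of the 13, where 13.1% of all genes were.

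Across the 15 OCI-AML3 libraries, which span all treatments and times, levels of MEIS1 and PBX3 moved together (Pearson r = 0.87 of log2 CPM), while PBX3 and HOXA5 moved apart (r = -0.67). As descriptions, with group differences included, genes with levels among the most like those of HOXA9 were CEP19 (r = 0.93) and RAB10 (0.88), and those most like MEIS1 were MEF2A (0.94), TAOK3 (0.94) and SNTB1 (0.94), among 14012 genes.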

How the data were processed

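RNA of 21 libraries, 3 in each of 7 groups, was analysed. From polyadenylated RNA the authors obtained paired-end reads, which they quality trimmed (seqtk), mapped (STAR, GRCh38) and quantified (RSEM, Ensembl release 101). They deposited expected counts of 60671 genes, neither scaled nor filtered. STAR, RSEM and GRCh38 are also named in the submitters' processing notes. Counts were rounded, and RSEM divides reads that align to several genes between them. Symbols came from a table of names, which matched 60401 identifiers. The 14012 genes that reached 1 CPM in 8 or more libraries were tested with edgeR 4.0.16 (R 4.3.3): TMM scaling, quasi-likelihood model with 7 group means, Benjamini-Hochberg adjustment over all genes tested, and calls at an adjusted p of at most 0.05. Each standard error was derived from the F statistic of its gene. Log2 CPM used a prior count of 2.

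Library sizes were those of the genes tested. A fit with library sizes over all genes had been run first and its calls seen, and it is given as an alternative added after seeing the data. The other alternatives were limma voom (limma 3.58.1), the DESeq2 Wald test and DESeq2 size factors (DESeq2 1.42.0), no TMM, other filters, a fit restricted to the groups in question, replicate number as a block, coding length for levels, and each library left out in turn. The members and lists were chosen with earlier results of these data known. Of a list at most 3 genes in each direction are named, farthest from 0 among those called in an OCI-AML3 tunicamycin comparison, together with genes that overlap a member, and other genes named in HEK293T, with NPM1 and HOXB9 there, were chosen after their values were seen. Positions and exon lengths are from GENCODE release 44, promoters from RefSeq. The model was tested on simulated data. Figures were drawn with matplotlib 3.10.9. Values of some genes of the lists are not reported here. Splicing, isoforms and proteins were not analysed here.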

Additional observations from a re-analysis of the deposited data

Results flagged for a closer look

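For members, 7 results differed between groups under the same contrast, by edgeR's interaction term with adjustment over all genes. The effect of tunicamycin on HOXA10 in OCI-AML3 was 0.533 higher (log2) at 24 h than at 4 h (adjusted p = 2.6e-05), with all 3 treated libraries below the controls at 4 h and all 3 above them at 24 h. At 24 h 6 effects were lower in HEK293T than in OCI-AML3. The differences were -0.684 for HOXA9 (adjusted p = 0.00014), -1.109 for HOXA10 (1.7e-09), -1.023 for HOXB3 (4.9e-06), -0.781 for HOXB4 (0.007), -0.709 for MEIS1 (5.7e-05) and -0.792 for PBX3 (0.00028). In each of these 6 members the 3 treated HEK293T libraries lay below the controls, and cell line and culture medium cannot be told apart.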

How the results depend on the processing

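Over 115 results on single genes, 3283 of 3450 alternative values kept their direction and their side of the threshold, 126 lost the call, 20 gained it and 21 reversed. The reversed values belonged to members with adjusted p above 0.05 or to the comparison of the lines. The cause was not tested. Without TMM, HOXA10 in HEK293T against OCI-AML3 was 0.063 and the difference between times was 0.033 for HOXA5; with every gene with a count kept, HOXB3 in HEK293T against OCI-AML3 was -0.017. When each library was left out in turn, the ranges that crossed 0 were, at 4 h in OCI-AML3, -0.213 to 0.084 for HOXA5, -0.236 to 0.299 for HOXA6 and -0.118 to 0.08 for HOXB4; at 24 h, -0.113 to 0.288 for HOXA3, -0.3 to 0.11 for HOXA5, -0.332 to 0.051 for HOXA6 and -0.004 to 0.213 for HOXB4; and for the difference between times, -0.238 to 0.181 for HOXA5, -0.435 to 0.099 for HOXA6, -0.026 to 0.169 for HOXA9 and -0.004 to 0.106 for MEIS1.

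The number of members called at 4 h in OCI-AML3 (2) was 1 with every gene with a count kept and 2 to 3 with a library left out. Between DMSO at 24 h and 4 h (1) it was 5 without TMM, 0 with only these groups and 0 to 3 with a library left out. For the difference between times (1) it was 2 without TMM and 1 to 2 with a library left out. It was 4 to 5 at 24 h in OCI-AML3, 8 to 10 at 24 h in HEK293T, 6 to 7 for the difference between lines and 8 to 10 between lines in DMSO with a library left out. With the replicate number as a block, it was 2 at 4 h and 5 at 24 h in OCI-AML3 and 10 in HEK293T, as without it, and of the single genes named only EZH2 at 24 h lost its call (-0.155, adjusted p = 0.054). The labels give no pairing, and the correlations of same-numbered libraries, from -0.139 to 0.199, were not all over 0.1 in any comparison. Library sizes without TMM moved the median of all genes by -0.119 between DMSO at 24 h and 4 h, by -0.113 for the difference between lines and by 0.343 between lines in DMSO. HOXA3, HOXA5, HOXA6 and HOXA7 had 16 to 118 counts in a library in OCI-AML3, and whether depth limited their calls was not tested. Ranks by coding length are in the text.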
